A study of Mus musculus with 8 samples.

Results

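The genes described here are FGF receptors, the mesenchymal ligand Fgf10 and genes that the receptors switch on through the kinase ERK, in cells of the Bapx1 domain of the mouse hindlimb. The set was named gene by gene, as Fgfr1, Fgfr2, Fgf10, Dusp6, Spry1, Spry2, Spry4, Etv4, Etv5 and Il17rd, and every probe that the platform table assigns to one of these 10 symbols was taken. Of the 10 genes, 9 had a probe, with 19 probes in all among 45281 on the array, and the platform table used here names no probe for Spry1. Of the 19 probes, 14 passed the detection filter and entered a test over 19568 probes that stand for 10772 genes, so 9 genes were tested. Each array carried labelled RNA of 1 sample on an Illumina whole-genome mouse BeadChip.

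The 4 Bapx1 null samples came from embryos homozygous for an allele in which EGFP follows the start codon of Bapx1, a homeobox gene of skeletal and gut mesenchyme, and interrupts it. The 4 wildtype samples came from embryos whose reporter allele keeps Bapx1 and expresses EGFP through an internal ribosome entry site in the 3' untranslated region. The study writes this line as heterozygous for the reporter, so the groups differ in reporter dose and design as well as in Bapx1. All 8 samples were EGFP-positive cells sorted from dissected hindlimbs at E12.5 on a mixed C57BL/6J and 129 background, and neither the labels nor the methods say how many embryos stand behind each sample. The methods call the arrays biological replicates, and the p-values below measure the spread between these 8 arrays.

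Fibroblast growth factors bind receptor tyrosine kinases together with heparan sulfate and act largely through the RAS, RAF, MEK and ERK cascade. In the limb bud, Fgf10 from the mesenchyme signals to the epithelial form of Fgfr2 in the ectoderm, and FGFs of the apical ridge signal back to receptors in the mesenchyme. ERK activity raises transcription of the ETS factors Etv4 and Etv5 and of its own inhibitors, among them the phosphatase Dusp6, the Sprouty proteins and the membrane protein Il17rd, also called Sef, so the RNA of these genes is widely read as a trace of recent FGF signalling. Fgfr2 is also known from mesenchymal condensations, where cartilage forms.

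Between 18942 and 20256 probes were detected on the null arrays and between 18375 and 19861 on the wildtype arrays. Wildtype replicate 4 stood apart, with the fewest detected probes and the lowest median intensity, 7.5 against 8.0 to 13.5 on the other 7 arrays. One Bapx1 probe was at least 10.4-fold higher and the other at least 8.07-fold higher on the null arrays, where all 4 arrays were above background, than on the wildtype arrays, where none was. No source used here places these probes relative to the sequence removed from the null allele, so they do not check the loss of Bapx1. The null allele lost only a short stretch behind the start codon, and a probe outside it can still read the transcript. That does not cover the lack of signal on wildtype arrays, whose cells were sorted by EGFP from an allele that keeps Bapx1. Its cause was not tested, so the probes do not check the genotype labels either. All directions below follow the genotypes in the sample titles. Tbx4, a hindlimb gene, had mean log2 levels of 11.77 on null and 11.89 on wildtype arrays, and 6 of the 8 limb mesenchyme markers were detected well enough to be tested. These 6 were not all level between the groups. Pitx1, Prrx1 and Msx1 read higher on null arrays, with log2 folds of 0.59, 1.18 and 1.43, and 3, Tbx4 among them, had negative log2 folds.

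No gene of the set passed the test between genotypes. The closest was Fgfr2, lower on the null arrays by 0.50 ± 0.10 (SE) on the log2 scale, followed by Fgf10, higher by 0.50 ± 0.13, each with 4 arrays a group and no overlap between the groups. By limma with Benjamini-Hochberg adjustment over all 19568 probes, 0 of the 14 probes were called at an adjusted p under 0.05, where 0.761% of all tested probes were called. An unadjusted p under 0.05 was reached by 6 of the 14 probes, which stand for 4 genes, against 11.3% of all tested probes. The genes were chosen with earlier results of these data known, so this share is no test of the set. A plain two-group F test per probe called 1 of the 14, in Fgfr2. The smallest absolute log2 fold among all called probes was 0.60, and the number of arrays limits the precision.

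Fgfr2 encodes a receptor tyrosine kinase, and the platform table gives it 4 probes. On the brightest, the normalized log2 levels were 13.05, 12.85, 12.89 and 12.91 on null arrays 1 to 4, and 13.46, 13.45, 13.44 and 13.34 on wildtype arrays 1 to 4. Every null array lay below every wildtype array, and the replicates within a genotype lay close together, with an SD of 0.09 in null and 0.06 in wildtype. The null level was 0.709 of the wildtype level (log2 fold -0.50, 95% interval -0.73 to -0.27), with an unadjusted p of 0.000836 and an adjusted p of 0.0782 (limma). The order was already there before any normalization between arrays: the deposited intensities were 8006, 5485, 8451 and 7474 on the null arrays and 14146, 10809, 12075 and 9684 on the wildtype arrays. Such values also carry the brightness of the whole array. Its median was 13.5, 10.9, 11.3 and 7.5 on wildtype arrays 1 to 4 and between 8.0 and 10.6 on null arrays. Groups lay apart with null lower for 3.74% of all tested probes. In such sorted samples, fewer cells that express a gene and less RNA of it per cell cannot be told apart.

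The other Fgfr2 probes were dimmer. The second tested probe had log2 levels of 7.69, 7.39, 7.50 and 7.84 on null arrays and 9.06, 8.38, 8.61 and 7.48 on wildtype arrays. Here wildtype replicate 4 lay among the null arrays while the other wildtype arrays lay above all of them. The log2 fold was -0.78 ± 0.29 (SE, adjusted p = 0.355). Leaving out 1 array at a time moved it between 2 ends. It was -1.07 ± 0.19 (adjusted p = 0.0537) without wildtype replicate 4 and -0.56 ± 0.26 (adjusted p = 0.577) without wildtype replicate 1. Another probe, assigned to another Fgfr2 transcript and too dim for the test, was above background on 0 null arrays and on 3 wildtype arrays. Its deposited intensities were 11.8, 5.6, 14.4 and 8.4 on null arrays and 35.7, 33.4, 32.1 and 13 on wildtype arrays, where the lowest wildtype value lay within the null range. The fourth probe was above background on no array. Both tested Fgfr2 probes thus read lower on average on null than on wildtype arrays, with overlap in the dimmer one. These probes share the same 8 RNA samples. The probe above background on wildtype arrays alone is not counted, since only the group where it read higher gave it signal.

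Fgfr1, a receptor known from the limb mesenchyme, was read near background. Its tested probe had log2 levels of 5.92, 6.12, 5.34 and 5.76 on null arrays and 6.37, 5.84, 5.68 and 5.21 on wildtype arrays. The groups overlapped fully and had the same mean of 5.78. The log2 fold was 0.01 with a 95% interval of -0.56 to 0.57 (adjusted p = 0.994), which leaves room for a change of about the size seen in Fgfr2 in either direction. Its other probe did not rise above an intensity of 1 on any array.

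**Figure D1:**
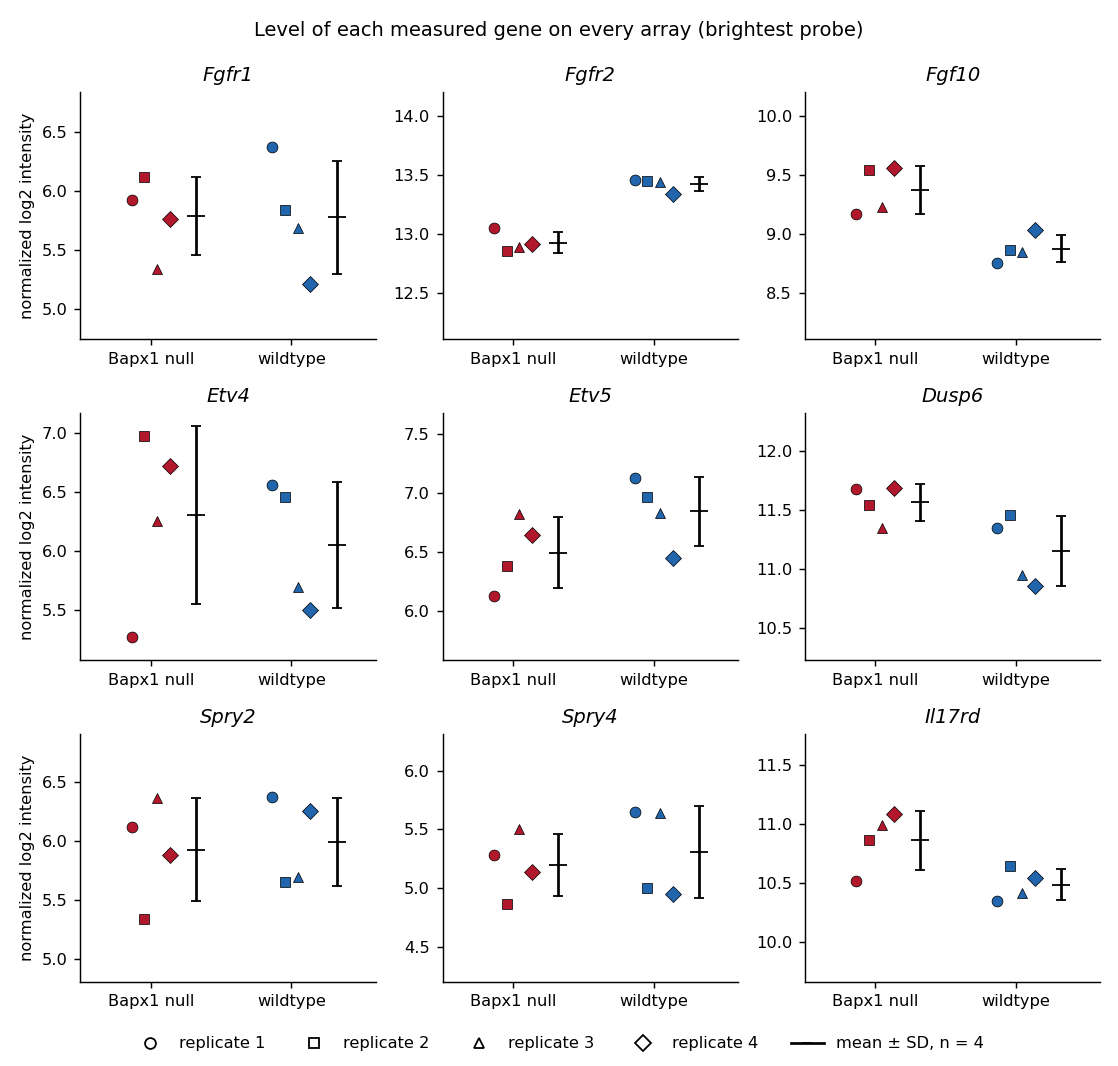
Normalized log2 intensity (vertical axis, 1 panel per gene, each spanning the same range of 2.1) on the 4 Bapx1 null arrays, left, and the 4 wildtype arrays, right, for the brightest probe of each of the 9 measured genes; symbols mark replicate numbers and bars give mean ± SD. The null points of Fgfr2 lie between 12.85 and 13.05, all below the wildtype points, and those of Fgf10 between 9.17 and 9.56, all above the wildtype points, while the groups overlap in the other 7 panels.

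Fgf10, the ligand that limb mesenchyme sends to the ectoderm, ran the other way. Its brightest probe had log2 levels of 9.17, 9.55, 9.23 and 9.56 on null arrays, against 8.76, 8.87, 8.85 and 9.04 on wildtype arrays. All null arrays lay above all wildtype arrays, and this holds for 2.55% of all tested probes. The null level was 1.41 times the wildtype level (log2 fold 0.50 ± 0.13, SE, 95% interval 0.20 to 0.80), with an adjusted p of 0.185 (limma).

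The second Fgf10 probe had log2 levels of 8.50, 8.80, 8.71 and 8.80 on null arrays and 8.24, 8.34, 8.41 and 8.51 on wildtype arrays. The lowest null array and the highest wildtype array of this probe were level with each other, and the log2 fold was 0.32 ± 0.12 (SE, adjusted p = 0.344). Unlike Fgfr2, the separation of Fgf10 appeared only after normalization, which evens out the differences in brightness between arrays. The deposited intensities of its brightest probe, 541, 520, 620 and 686 on null arrays and 592, 425, 533 and 416 on wildtype arrays, overlapped. The third Fgf10 probe was above background on 1 null array and on 0 wildtype arrays and was not tested.

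The ETS factors Etv4 and Etv5, which FGF signalling induces in the limb bud, gave opposite signs and wide intervals. Etv4 had log2 levels of 5.27, 6.98, 6.26 and 6.72 on null arrays and 6.56, 6.46, 5.70 and 5.50 on wildtype arrays. The lowest value of all 8 was a null array and so was the highest, and the log2 fold was 0.25 with a 95% interval of -0.61 to 1.11 (adjusted p = 0.852). Etv4 was read near background, at deposited intensities of 21.1 to 115.2, so its spread and sign are limited by signal. Etv5 had 6.13, 6.38, 6.82 and 6.64 on null arrays and 7.13, 6.97, 6.83 and 6.45 on wildtype arrays on its brightest probe. Of its wildtype arrays, 3 lay above every null array and replicate 4 lay among them, giving a log2 fold of -0.35 (95% interval -0.79 to 0.08, adjusted p = 0.544). On the second Etv5 probe the null arrays lay between 6.11 and 6.36, below wildtype replicates 1 to 3 at 6.66 to 6.68, but wildtype replicate 4 lay below all of them at 6.00 (log2 fold -0.25 ± 0.17, SE, adjusted p = 0.628).

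Dusp6, the phosphatase that removes the activating phosphates from ERK, read higher on average on null arrays. On its brightest probe the log2 levels were 11.68, 11.54, 11.35 and 11.69 on null arrays and 11.35, 11.46, 10.95 and 10.86 on wildtype arrays. Null replicate 3 was level with wildtype replicate 1 and below wildtype replicate 2, so the groups overlapped. The log2 fold was 0.41 ± 0.16 (SE, 95% interval 0.04 to 0.78, unadjusted p = 0.0319, adjusted p = 0.386). The second Dusp6 probe gave 0.34 ± 0.20 (SE, adjusted p = 0.576), with null arrays between 9.94 and 10.48 and wildtype arrays between 9.52 and 10.29, and the third was above background on 1 wildtype array alone.

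Il17rd, the membrane inhibitor of FGF receptors, resembled Dusp6 in sign and size. Its brightest probe had log2 levels of 10.51, 10.86, 10.99 and 11.08 on null arrays and 10.34, 10.64, 10.41 and 10.54 on wildtype arrays. Only null replicate 1 lay within the wildtype range, and the log2 fold was 0.38 ± 0.15 (SE, 95% interval 0.05 to 0.71, unadjusted p = 0.0298, adjusted p = 0.375). Its dimmer probe gave 0.30 ± 0.14 (SE, adjusted p = 0.457), with null arrays between 6.41 and 6.86 and wildtype arrays between 6.25 and 6.60.

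The Sprouty genes, which encode inhibitors of signalling between receptor tyrosine kinases and RAS, were read close to background. Spry2 had log2 levels between 5.34 and 6.36 on null arrays and between 5.65 and 6.37 on wildtype arrays, with a log2 fold of -0.07 (95% interval -0.62 to 0.49, adjusted p = 0.947). Spry4 lay between 4.87 and 5.50 on null arrays and between 4.95 and 5.65 on wildtype arrays, with a log2 fold of -0.11 (95% interval -0.58 to 0.36, adjusted p = 0.881). Spry4 was above background on 3 null and 2 wildtype arrays, so part of these readings are background. In neither gene was a difference detectable at this signal.

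**Figure D2:**
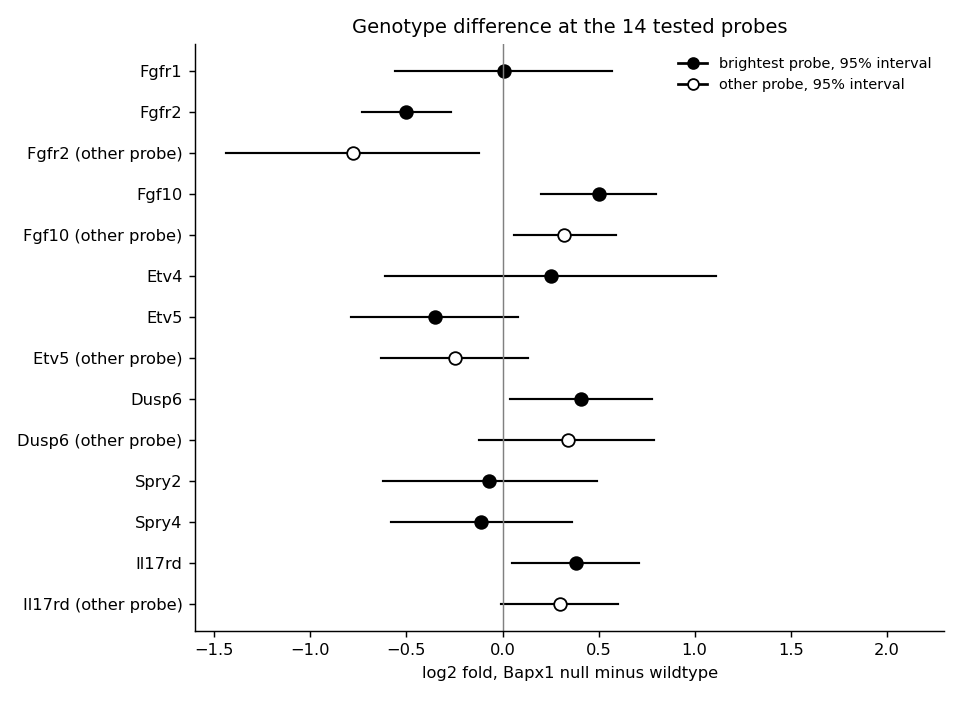
Log2 fold, Bapx1 null minus wildtype (horizontal axis), with its 95% interval for each of the 14 tested probes, filled for the brightest probe of a gene and open for the others, n = 4 arrays a group. The intervals of both Fgfr2 probes lie below 0 and those of both Fgf10 probes, the brightest Dusp6 probe and the brightest Il17rd probe lie above it, and none of the 14 passed adjustment over all probes.

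By the brightest probe of each gene, 5 of the 9 genes had a positive and 4 a negative log2 fold, with a median of 0.01, against -0.04 over all 10772 genes. The median absolute log2 fold of the 9 genes was 0.35, against 0.14 over all genes. Since the genes were chosen with earlier results of these data known, this comparison is no test of the set. In each of the 5 genes with more than 1 tested probe, both probes gave the same sign. Levels of different probes were not set against each other, since a probe's brightness depends on its sequence, so the genes cannot be ranked by expression.

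The genes did not share a direction. Within the inhibitors, Dusp6 and Il17rd read higher on average on null arrays while Spry2 and Spry4 lay near 0, and the 2 ETS factors differed in sign. None of these differences between genes was tested.

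Outside the pathway lists, the gene whose deviations over the 8 arrays were most like those of Fgfr2 was the kinase gene Sgk1, with a root mean square difference of 0.072 on the log2 scale. Tspan12 and the epithelial transcription factor gene Grhl3 followed at 0.085 each, then the neurofilament gene Nefm at 0.089 and Capn6 at 0.093. Their log2 folds lay between -0.52 and -0.41, with adjusted p-values between 0.0988 and 0.235.

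Among 21 other FGF ligand genes, 7 were tested and 1 was called, where 0.947% of all genes were called by their brightest probe. Fgf12, an intracellular member of the family that is not secreted and binds sodium channels, fell to log2 levels of 5.23, 5.84, 6.06 and 6.15 on null arrays, against 7.05, 7.69, 7.08 and 7.29 on wildtype arrays. The groups were well apart, and the log2 fold was -1.46 ± 0.22 (SE, adjusted p = 0.0217), or 0.364 of the wildtype level. The null levels were close to background, though above it on all 4 null arrays. The log2 fold of Fgf12 ran between -1.88 and -1.06 over the 23 alternatives, so its size is uncertain. The call was lost under 8 of 23 alternatives: without null replicate 2, wildtype replicate 3 or wildtype replicate 4 (adjusted p of 0.0734, 0.0750 and 0.0569), with no filter (0.0703), with the floor at 1 (0.0763), with the plain F test (0.136) and under scaling by median absolute deviation with limma (0.190) or with that F test (0.819). Fgf8 and Fgf17, ligands of the apical ridge, gave log2 folds of 0.25 ± 0.18 (SE, adjusted p = 0.637) and -0.35 ± 0.18 (adjusted p = 0.509), both with overlapping groups. Fgf8 was read close to background, at log2 levels of 5.28 to 5.95 on null and 5.02 to 5.51 on wildtype arrays. It was above background on 4 null and 3 wildtype arrays. Fgf7, a ligand of the epithelial form of Fgfr2, gave -0.20 ± 0.15 (adjusted p = 0.670). The median log2 fold of the 7 genes was -0.07. The ridge ligands Fgf4 and Fgf9 were among the 14 not tested.

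Of 10 other receptors and partners, 4 were tested and none was called, 1 of them lower at an unadjusted p under 0.05, as were 6.31% of all genes, with 5.20% higher. The same shares stand beside such counts in the later lists. That gene was Fgfrl1, a receptor without a kinase domain, with log2 levels of 9.38, 9.36, 9.11 and 8.99 on null arrays, against a lowest level of 9.57 on wildtype arrays. Its groups lay apart in the same direction as Fgfr2, and it gave -0.58 ± 0.14 on the log2 scale (SE, adjusted p = 0.139). Flrt3, a membrane partner of FGF receptors, gave 0.47 ± 0.26, Fgfbp3, an FGF carrier, 0.12 ± 0.11 and Flrt2 0.03 ± 0.27. Fgfr3 and Fgfr4 were not tested.

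Heparan sulfate chains hold FGFs at their receptors, and 19 of the 20 listed genes that make, carry or trim them were tested. None was called and their median log2 fold was -0.09, while 4 were higher and 2 lower at an unadjusted p under 0.05. The sulfotransferase Hs6st2 gave 0.69 ± 0.16 (SE, adjusted p = 0.110) and the core proteins Sdc2 and Gpc4 gave 0.73 ± 0.19 (adjusted p = 0.162) and 0.85 ± 0.26 (adjusted p = 0.246). Sulf2, which strips sulfate from the chains, gave -0.49 ± 0.14 (adjusted p = 0.215) with all null arrays below all wildtype arrays.

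Of the 25 listed adaptor and cascade genes between receptor and ERK, 14 were tested and none was called, with 0 higher and 2 lower at an unadjusted p under 0.05 and a median log2 fold of -0.07. Nf1, which inactivates RAS, gave -0.71 ± 0.20 (SE, adjusted p = 0.211) and Sos1, which activates it, -0.62 ± 0.20 (adjusted p = 0.266), with Sos1 above background on only 2 null arrays. The docking protein Gab1 gave -0.22 ± 0.10 (adjusted p = 0.444) and Rasa1, a further brake on RAS, 0.20 ± 0.18 (adjusted p = 0.722).

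Of 18 further ERK targets and inhibitors, 11 were tested and none was called, with 1 higher and 1 lower at an unadjusted p under 0.05. The phosphatase Dusp4, which also acts on ERK, had log2 levels of 8.64, 8.94, 8.74 and 9.24 on null arrays and 8.11, 8.18, 8.47 and 8.34 on wildtype arrays. Its groups did not overlap and it gave 0.62 ± 0.16 (SE, adjusted p = 0.154), the same sign as Dusp6. Errfi1, an inhibitor of EGF receptors, gave -0.40 ± 0.12 (adjusted p = 0.232), the ETS gene Etv1 0.30 ± 0.16 (adjusted p = 0.542) and Dusp7 0.37 ± 0.21 (adjusted p = 0.556). The median of the 11 genes was -0.05.

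Immediate early genes respond to ERK within minutes and also to the handling of cells during dissociation and sorting. Of 15 listed, 9 were tested and none was called, with 2 higher and 2 lower at an unadjusted p under 0.05 and a median log2 fold of -0.08. Egr1 came nearest, with log2 levels of 9.33, 10.01, 9.55 and 9.29 on null arrays and 8.12, 8.64, 8.82 and 8.22 on wildtype arrays. Every null array lay above every wildtype array, and the log2 fold was 1.10 ± 0.21 (SE, adjusted p = 0.0582). Egr1 passed with offset 50, cyclic loess, the replicate block and trend and robust eBayes, with adjusted p-values between 0.0389 and 0.0464. Fos gave 1.69 ± 0.38 (adjusted p = 0.105), also with groups apart, while Jun gave -0.45 ± 0.11 (adjusted p = 0.134) and Atf3 -0.51 ± 0.16 (adjusted p = 0.253). Egr1 and Fos thus read higher on null arrays, as Dusp6 and Il17rd did, and Jun and Atf3 lower, and the part of handling in any of these readings was not tested.

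Of 18 limb patterning genes that act around Fgf10, 14 were tested and none was called. Their median log2 fold was 0.28, with 10 positive and 4 negative. At an unadjusted p under 0.05, 5 were higher and 0 lower, against 5.20% and 6.31% of all genes. The mean log2 level of the list was 8.07, 8.55, 8.55 and 8.92 on null arrays 1 to 4. On wildtype arrays it lay between 8.06 and 8.29, so null replicate 1 lay within the wildtype range. The T-box gene Tbx3 gave 1.30 ± 0.36 (SE, adjusted p = 0.207; 0.0402 with the replicate block), the homeobox genes Msx1 and Pitx1 1.43 ± 0.47 (adjusted p = 0.290) and 0.59 ± 0.25 (adjusted p = 0.417), and the ligand gene Wnt5a 0.34 ± 0.14 (adjusted p = 0.419). Msx1 was spread widely among null arrays, at 7.52, 8.57, 8.96 and 10.30, and tightly among wildtype arrays, between 7.34 and 7.48.

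**Figure D3:**
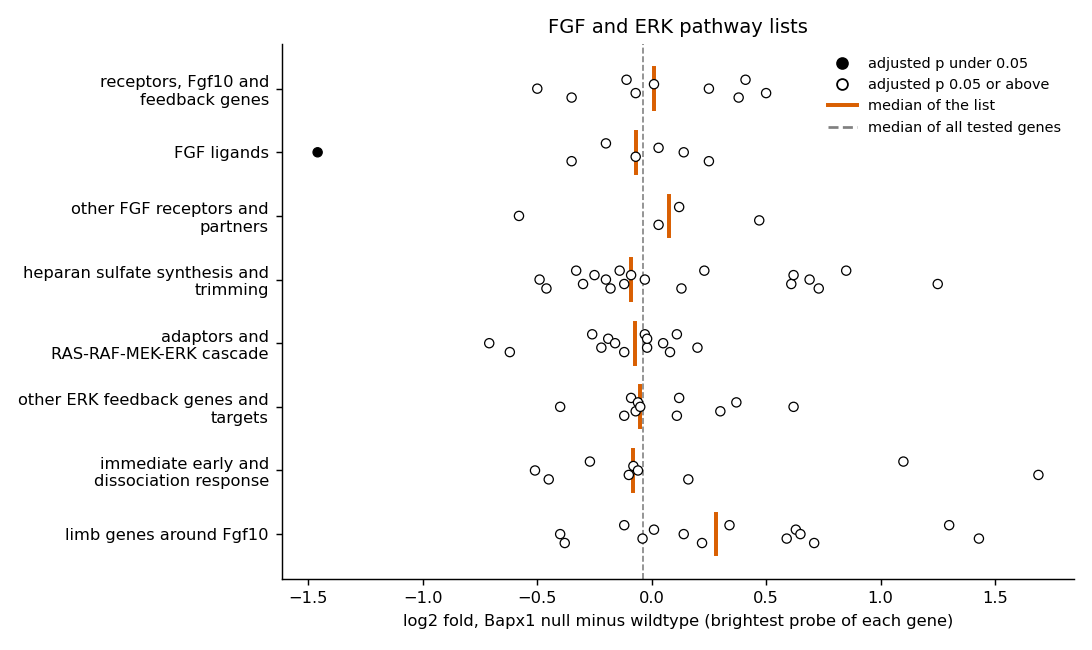
Log2 fold, Bapx1 null minus wildtype (horizontal axis), of every tested gene of the 9-gene set and of 7 FGF and ERK pathway lists, by its brightest probe and 4 arrays a group; filled points passed an adjusted p under 0.05, orange lines are list medians and the dashed line is the median of all tested genes. The 1 filled point is Fgf12 at -1.46, and the list medians run between -0.09 and 0.28.

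Markers of cell types differed between the groups beside the FGF genes. Of 15 tested cartilage markers 2 were called lower, Chst11 and Comp, where 0.613% of all genes were, and 14 were negative, with a median log2 fold of -0.63. At an unadjusted p under 0.05 (limma), 9 were lower and 0 higher, against 6.31% and 5.20% of all genes. Their summed linear level lay between 37900 and 45900 on null arrays and between 50200 and 55900 on wildtype arrays. This list moved in the direction of Fgfr2, and its part in the Fgfr2 values was not tested. Of 8 tested ectoderm markers none was called, their summed level lay between 750 and 991 on null and between 592 and 1240 on wildtype arrays, and 5 of the 13 listed, Epcam and Krt5 among them, did not pass the detection filter. Of the 8 that did, Krt14, Krt8, Krt18, Cdh1, Esrp1 and Cldn6 were above background on all 8 arrays, Krt14 with mean log2 levels of 8.52 on null and 8.61 on wildtype arrays. Of 6 tested limb mesenchyme markers none was called, with sums between 14500 and 17500 on null and between 15000 and 17900 on wildtype arrays. Their mean log2 levels did not overlap, at 9.58 to 10.16 on null and 9.32 to 9.52 on wildtype arrays. At an unadjusted p under 0.05 (limma), 3 were higher and 0 lower, while 3 of the 6 log2 folds were positive and 3 negative. Prrx1 gave a log2 fold of 1.18 ± 0.26 (SE, adjusted p = 0.0994). The part of these markers in the Fgf10 values was not tested.

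Blood cell markers were the most unequal. Of 11 tested platelet markers 10 were called lower, with sums between 477 and 1640 on null arrays and between 6640 and 7940 on wildtype arrays. Of 7 tested red cell markers 1, Hbb-bh1, was called higher, where 0.334% of all genes were, with sums between 5380 and 41300 on null and between 2400 and 4380 on wildtype arrays. None of the 8 endothelial, 7 macrophage, 5 muscle and 4 nerve markers tested was called, with 1 nerve marker lower at an unadjusted p under 0.05. The muscle marker Myog read higher on null arrays but was above background on 4 null and 0 wildtype arrays. It is not counted, since only the group where it read higher let it pass the filter. The summed levels of the platelet and red cell lists did not overlap between groups, and their part in the values of the FGF genes was not tested.

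By the brightest probe, the signs of Fgfr2, Fgf10, Dusp6, Il17rd, Etv4 and Etv5 were the same under all 23 alternative settings, whereas Fgfr1 and Spry2 crossed 0 under 8 and 5 of them. The brightest Fgfr2 probe passed the threshold under 5 alternatives and fell short under 18, with log2 folds between -0.64 and -0.22 and adjusted p-values between 0.00759 and 1. With arrays scaled to a common median absolute deviation, as the methods describe, its fold was -0.22 ± 0.56 (SE). Leaving out 1 array at a time moved it only between -0.54 and -0.48, with adjusted p-values between 0.0957 and 0.247. Fgf10 lay between 0.34 and 0.60, Dusp6 between 0.29 and 0.63 and Il17rd between 0.23 and 0.53, and none of these 3 genes passed under any alternative.

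**Figure D4:**
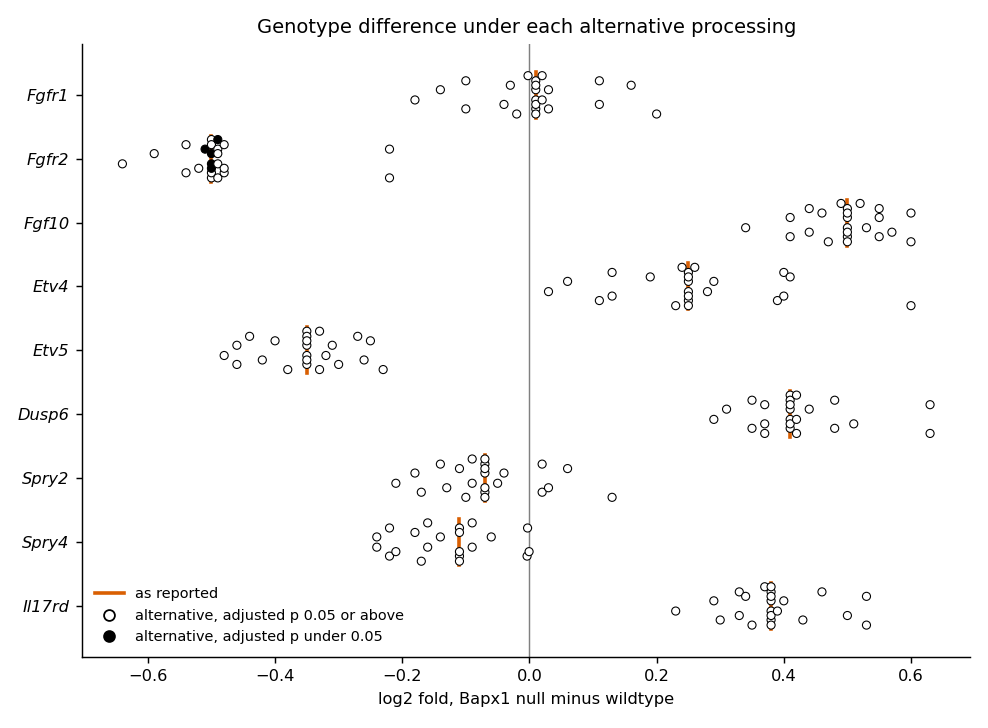
Log2 fold, Bapx1 null minus wildtype (horizontal axis), of the brightest probe of each of the 9 measured genes as reported (orange line) and under each alternative processing (points, filled where the adjusted p was under 0.05). Filled points occur for Fgfr2 alone, and the points of Fgf10, Dusp6 and Il17rd all lie above 0.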

How the data were processed

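RNA of 8 sorted hindlimb samples, 4 Bapx1 null and 4 wildtype by their titles, was hybridized to Illumina MouseWG-6 v2 arrays. The deposited intensities are per the labels background-subtracted GenomeStudio values before normalization, and between 30.9% and 34.3% of an array's values lay under 1. Beside each, the authors deposited a detection score, a fraction between 0 and 1 that rises with intensity, so the detection p was taken as 1 minus it. A second deposited table holds log2 values that the authors shifted by array medians and a constant per probe, whose origin is unknown; column medians were 0.01, 0.17, 0.10 and 0.03 in null and -0.03, -0.03, -0.04 and 0.42 in wildtype. Only this table names probes, and the tables differ in row order, so 35454 of 45281 probes were matched by their values (within 0.0001); the other 9827 were detected on fewer than 4 arrays. The platform table gives 34885 probes 1 symbol and 18 several.

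Intensities were corrected by normexp with offset 16, quantile normalized and log2 transformed (neqc, limma 3.58.1, R 4.3.3). Probes were kept where 4 or more of the 8 arrays had a detection p below 0.05, and tested by lmFit and eBayes, two-sided, no covariate, adjusted over all 19568. An at-least fold sets the null mean against the lowest detected signal per array in wildtype. The steps were tested on simulated data. A gene is represented by its brightest tested probe; text names all probes of the set, and per list the called genes and otherwise the 4 of smallest p, plus the 5 genes most like Fgfr2. Fgf4, Fgf9, Fgfr3, Fgfr4 and cell type markers are named outside this rule. The genes and lists were chosen with earlier results of these data known, so no list was tested. Alternatives covered background, normalization, filter, model, probe choice and single arrays.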

Additional observations from a re-analysis of the deposited data

Results flagged for a closer look

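Among 28 sets of 4 arrays (14 probes, 2 genotypes), 2 had 1 array further from the others than Dixon's 95% limit allows, and chance flags about 1 in 20 such sets. Both were wildtype replicate 4, the array with the fewest detected probes. On the brightest Fgfr2 probe it read 13.34, against 13.44 to 13.46 on the other wildtype arrays (gap over range 0.855). On the dimmer Etv5 probe it read 6.00, against 6.66 to 6.68 (gap over range 0.979). Without this array the log2 fold of the Fgfr2 probe was -0.52 ± 0.11 (SE, adjusted p = 0.0979) and that of the Etv5 probe -0.42 ± 0.11 (adjusted p = 0.196).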

How the results depend on the processing

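The count of called probes, 149 in the reported analysis, was 59 with intensities floored at 1 and quantile normalized, 10 with scaling by median absolute deviation, 65 in the deposited log2 table, 97 with detection required on all 8 arrays, 267 with array weights, 53 with the methods' ANOVA and 2 with that ANOVA on scaled values, a combination chosen after seeing the data. Leaving out 1 array gave 50 to 142. In the 14 probes of the set the count was 1 instead of 0, always the brightest Fgfr2 probe, with offset 50 (adjusted p = 0.0373), no filter (0.0244), array weights (0.0326), trend and robust eBayes (0.00759) and the ANOVA (0.0364). In the pathway lists it was 1 as reported, 2 with offset 50, cyclic loess, trend and robust eBayes or the mean of a gene's probes, 3 (Fgf12, Fgfrl1 and Hs6st2) with array weights, 0 with the floor, either scaling, no filter or the ANOVA, where Fgf12 lost its call, and 0 to 3 without 1 array. The Bapx1 probes were not above background on any wildtype array, so a fitted log2 difference there depends on the background treatment and is no measure of size: it was 3.97 with neqc and 7.77 (adjusted p = 0.134) with the ANOVA on scaled values. Signs turned for Fgfr1 (offset 50, -0.0022; median centring, -0.10; log2 table, -0.03; array weights, -0.14; -0.18 to 0.20 without 1 array), Spry2 (cyclic loess, 0.02; array weights, 0.03; -0.21 to 0.13), Flrt2 (median centring, -0.12; log2 table, -0.06; array weights, -0.08; -0.23 to 0.18) and Fgfbp3 (median centring, -0.04). The causes were not tested. Deviations of same-numbered arrays had correlations of 0.074, 0.457, 0.256 and -0.313. The wildtype array most like a null array in its deviations had the same number for null replicates 1 and 2, and another for 3 and 4. This does not settle whether the numbers pair the samples. With the replicate block, 108 probes were called, 0 of the set and 3 of the lists (Fgf12, Egr1 and Tbx3), and Fgfr2 had an adjusted p of 0.153. Dim genes such as Fgfr1, Etv4, Spry2 and Spry4 are limited by signal over background.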
